A study of Mus musculus with 11 samples.

Results

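Mesothelial markers and simple keratins were followed through mouse cell lines of interstitial cell of Cajal (ICC) progenitors and the stomach muscle wall they came from. The genes were listed by name and are the 6 mesothelial markers Msln, Upk3b, Wt1, Lrrn4, Upk1b and Muc16 and the 4 keratins Krt7, Krt8, Krt18 and Krt19. They are 10 of the 18193 genes that the array annotation names on its own for at least 1 probe set, and 16 of the 45037 probe sets that are not controls carry their symbols. All 10 passed the filter on low values and are among the 13285 genes tested.

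Mesothelium is the thin layer that covers the stomach and the other organs of the body cavities, and it lies on the outer face of the muscle wall. It is unusual in carrying keratins of simple epithelia together with Wt1, a transcription factor of the embryonic body cavity lining. Keratin filaments are built from pairs of a type II keratin, here Krt7 or Krt8, with a type I keratin, here Krt18 or Krt19, and an unpaired keratin protein is generally degraded. The same keratins are made by the glandular lining of the stomach and by ducts, so they do not mark mesothelium alone.

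RNA from 4 groups was put on 11 Affymetrix mouse genome arrays. The C57BL/6J line, 2xSCS2F10 (3 arrays), came from the gastric tunica muscularis (the muscle layers) of wild-type C57BL/6J mice and grew at 37 °C in NeuroCult neural stem cell medium to which 5% chick embryo extract was added. The tsA58 line, 2xSCS70 (3 arrays), came from the same layers of H-2Kb-tsA58 mice and grew in that medium at 39.5 °C without interferon-gamma, with no extract named. The source tissue itself gave 2 arrays for C57BL/6J and 3 for H-2Kb-tsA58. The H-2Kb-tsA58 transgene holds a heat-sensitive SV40 large T antigen behind an interferon-responsive promoter, and the titles call its line conditionally immortalised. Each strain is represented by 1 line, so clone, strain, transgene, temperature and extract cannot be told apart between the lines. Age and sex of the mice are not given in the sources used here. Titles call the replicates biological, but no source places them in separate cultures or animals, so p-values measure only the spread between these arrays, which may be technical.

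Levels are log2 intensities, and array medians lay between 4.66 and 4.84, where a level cannot be told from background. Smooth muscle actin Actg2 marked all 5 tissue arrays (12.30 to 13.18) and no line array (3.22 to 3.73). Kit, the receptor that marks mature ICC, stood at 6.83 to 8.61 in tissue and 3.16 to 3.87 in the lines. On tsA58 line replicate 3 the 3' to 5' actin log2 ratio was 0.053 against 0.511 and 0.853 on replicates 1 and 2, and 5.52% of genes lay at least 1 log2 unit above the mean of those replicates. By the same measure the share was 1.72% for replicate 1 and 4.15% for replicate 2 of that line. Replicate 3 kept the line's own levels of Ly6e (12.84 against 12.96 and 13.10, and 2.88 to 3.37 in the C57BL/6J line) and Meg3 (4.91 against 4.41 and 4.70, and 11.86 to 12.11 in the C57BL/6J line). Kit, Ly6e and Meg3 were picked for this check after their values were seen. Exocrine pancreas genes averaged 11.25 on C57BL/6J tissue replicate 1 and 10.44 on tsA58 tissue replicate 2, against 5.01 to 6.45 on the other 3 tissue arrays.

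All mesothelial markers but Muc16 stood well above the array medians in the C57BL/6J line and in both tissues, and Msln, Upk3b, Lrrn4 and Muc16 were lowest on replicates 1 and 2 of the tsA58 line. Msln, a cell surface glycoprotein anchored by a lipid, stood at 9.79, 9.68 and 10.01 in the C57BL/6J line, 8.85 and 9.16 in C57BL/6J tissue, 7.77, 7.52 and 8.93 in the tsA58 line and 10.58, 9.86 and 9.79 in tsA58 tissue. Its C57BL/6J line and tsA58 tissue values overlapped as the highest groups, and the tsA58 line reached the C57BL/6J tissue range on replicate 3 alone. Muc16, the membrane mucin that mesothelin binds, stood at 5.05, 4.91 and 6.43 in the C57BL/6J line, 6.34 and 6.55 in C57BL/6J tissue, 3.93, 3.71 and 6.77 in the tsA58 line and 8.39, 8.35 and 8.30 in tsA58 tissue. For Muc16 the tsA58 tissue stood above all other arrays, and the other 3 groups overlapped.

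The uroplakins Upk3b and Upk1b, membrane proteins first known from the bladder lining, spread widely in the tsA58 line and little in the other 3 groups. Upk3b stood at 12.32, 12.18 and 12.29 in the C57BL/6J line, 9.97 and 10.18 in C57BL/6J tissue, 8.80, 7.85 and 12.43 in the tsA58 line and 11.002, 10.69 and 10.82 in tsA58 tissue. Replicates 1 and 2 of the tsA58 line were below every tissue array and replicate 3 was the highest of the 11 arrays. Upk1b stood at 10.93, 10.68 and 10.90 in the C57BL/6J line, 9.02 and 9.27 in C57BL/6J tissue, 9.97, 8.40 and 12.14 in the tsA58 line and 9.22, 9.08 and 8.94 in tsA58 tissue. The tsA58 line thus held both the lowest and the highest Upk1b value, and the 2 tissues overlapped.

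Wt1 separated the C57BL/6J line from both tissues, whereas Lrrn4, a membrane protein with leucine-rich repeats, set 2 tsA58 line arrays apart from all the others. Wt1 stood at 10.48, 10.06 and 10.71 in the C57BL/6J line, 7.17 and 6.95 in C57BL/6J tissue, 7.29, 6.95 and 9.52 in the tsA58 line and 7.11, 6.96 and 6.61 in tsA58 tissue. Only the C57BL/6J line and tsA58 line replicate 3 exceeded 7.29. Lrrn4 stood at 9.35, 8.09 and 9.50 in the C57BL/6J line, 8.95 and 8.997 in C57BL/6J tissue, 4.14, 2.97 and 8.79 in the tsA58 line and 8.11, 8.64 and 8.17 in tsA58 tissue. Replicates 1 and 2 of the tsA58 line were under the array medians, so the size of the Lrrn4 difference is a lower limit there, and replicate 3 was inside the range of the other 3 groups.

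**Figure D1:**
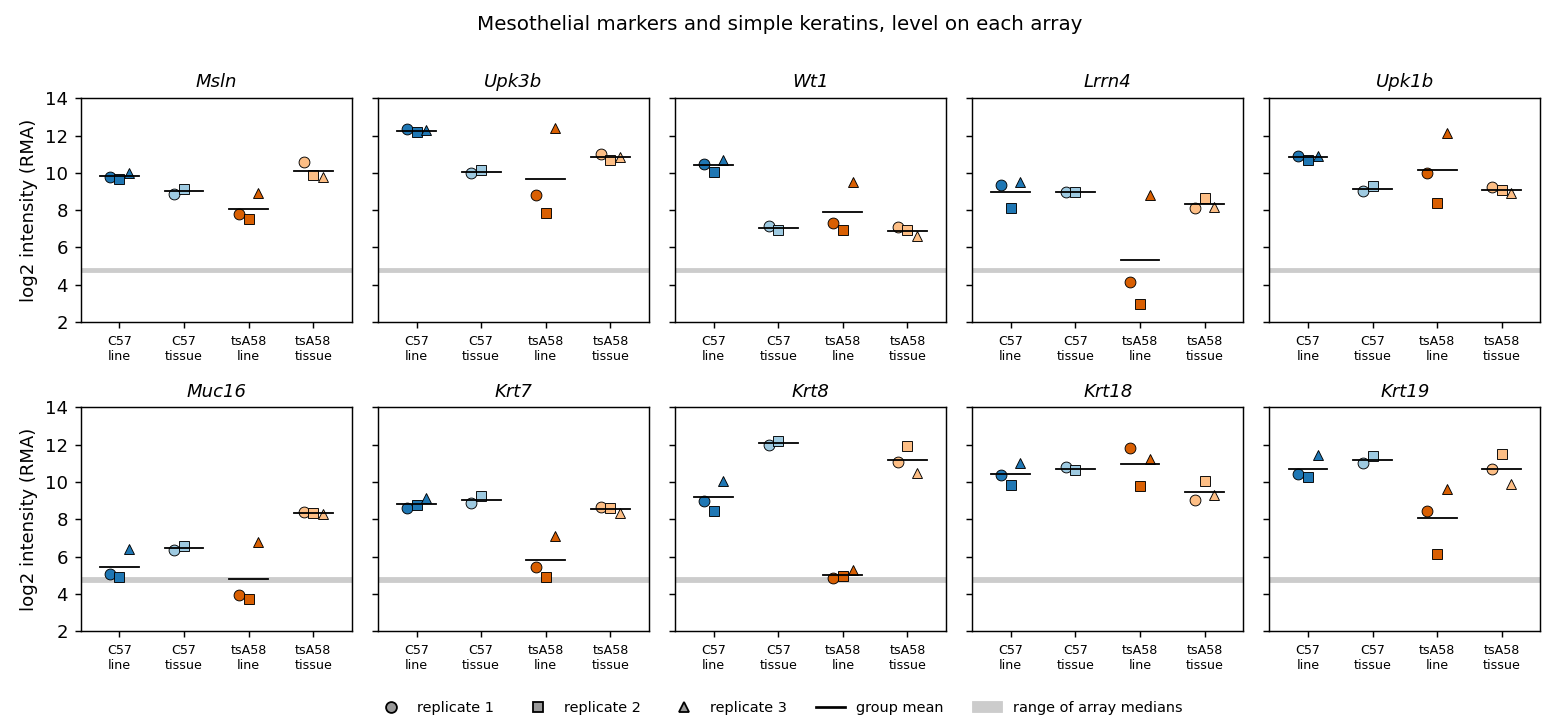
Log2 intensity of each of the 10 genes on the 11 arrays, 1 panel per gene and 1 probe set per gene; point shape gives the replicate, bars are group means and the grey band spans the array medians (4.66 to 4.84). In the tsA58 line, Lrrn4 runs from 2.97 to 8.79 and Upk3b from 7.85 to 12.43, while Krt8 stays between 4.88 and 5.27.

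RefSeq (GRCm38.p6) gave a sequence before the transcription start for 6 of the 10 genes. The 250 bases before the start of Upk3b (chr5:136038246-136038495, plus strand) and of Lrrn4 (chr2:132880863-132881112, minus strand) are shown because these genes had the largest gaps between tsA58 line arrays. Capitals mark CATTCC, the core letters bound by TEAD factors, or its reverse complement GGAATG, at 241 to 236 bases before the start of Upk3b and 196 to 191 before that of Lrrn4.
Upk3b: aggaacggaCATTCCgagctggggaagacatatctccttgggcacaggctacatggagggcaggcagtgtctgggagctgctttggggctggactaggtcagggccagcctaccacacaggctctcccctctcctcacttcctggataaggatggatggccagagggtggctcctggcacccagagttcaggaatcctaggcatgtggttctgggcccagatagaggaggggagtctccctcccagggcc
Lrrn4: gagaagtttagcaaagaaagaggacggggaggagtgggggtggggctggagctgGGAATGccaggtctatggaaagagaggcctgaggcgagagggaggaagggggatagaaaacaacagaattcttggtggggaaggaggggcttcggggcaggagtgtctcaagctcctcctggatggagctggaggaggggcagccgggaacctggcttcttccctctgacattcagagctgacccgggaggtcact
On either strand, CATTCC occurred in 12.6% of 32851 promoters of this length and in these 2 of the 6 available here. A match of 6 letters describes the sequence and is no evidence of binding.

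Krt8 and Krt18 parted between the groups, whereas Krt7 and Krt19 were both lowest in the tsA58 line. The type II keratin Krt8 stood at 9.004, 8.46 and 10.08 in the C57BL/6J line, 11.98 and 12.18 in C57BL/6J tissue, 4.88, 4.99 and 5.27 in the tsA58 line and 11.10, 11.94 and 10.50 in tsA58 tissue. The tissues, the C57BL/6J line and the tsA58 line formed 3 ranges without overlap, and the tsA58 line lay at the array medians on all 3 arrays, so fold changes that end there understate the difference. Krt18, the usual type I partner of Krt8, stood at 10.39, 9.86 and 11.04 in the C57BL/6J line, 10.79 and 10.64 in C57BL/6J tissue, 11.82, 9.78 and 11.25 in the tsA58 line and 9.05, 10.04 and 9.33 in tsA58 tissue. Krt18 was far above the medians on every array, and the highest of the 11 values was on a tsA58 line array.

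Krt7, the other type II keratin, stood at 8.59, 8.78 and 9.17 in the C57BL/6J line, 8.85 and 9.25 in C57BL/6J tissue, 5.43, 4.91 and 7.10 in the tsA58 line and 8.68, 8.60 and 8.33 in tsA58 tissue. Krt19, a short type I keratin of ducts and mesothelium, stood at 10.46, 10.25 and 11.44 in the C57BL/6J line, 11.03 and 11.39 in C57BL/6J tissue, 8.47, 6.16 and 9.62 in the tsA58 line and 10.70, 11.49 and 9.91 in tsA58 tissue. For both genes the tsA58 line was below every array of the other 3 groups, and those groups overlapped with each other for Krt19. For Krt7 the C57BL/6J line overlapped both tissues, while the tissues did not overlap.

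The first comparison asks what the cultured wild-type progenitors keep of their source tissue. Wt1 rose by 3.35 ± 0.60 on the log2 scale (10.2-fold, limma adjusted p = 0.00108) and Krt8 fell by 2.90 ± 0.47 (7.47-fold, adjusted p = 0.000567). A call required an adjusted p below 0.05 and a change of at least 2-fold, and by that rule 2 of the 10 genes were called, against 34.1% of all genes (17.5% higher and 16.6% lower). Upk3b (2.19 ± 0.98, adjusted p = 0.0899) and Upk1b (1.69 ± 0.77, adjusted p = 0.0959) were higher on every line array than on every tissue array but not called. Msln (0.82), Lrrn4 (0.01), Muc16 (-0.99), Krt7 (-0.21), Krt18 (-0.29) and Krt19 (-0.49) were not called either. The median change was -0.10 for the 10 genes and 0.12 for all genes. In whole tissue, fewer cells of a type and less RNA per cell cannot be told apart.

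Standard errors are shared by all 4 groups, so the spread of the tsA58 line enters this comparison. Without tsA58 line replicate 3, Upk3b (adjusted p = 9.49e-05) and Upk1b (adjusted p = 0.00366) were called at the same fold changes. This gave 4 of 10 genes against 35.1% of all genes. That array was singled out with its values for these genes known, so counts without it, here and below, test nothing. The same 4 genes were called without tsA58 line replicate 2. Centring the arrays on their hybridisation controls ended the Krt8 call (-1.64, adjusted p = 0.0518), and this scaling moved the median of all genes by 1.27. The Wt1 call was kept.

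The tsA58 line was compared with its own tissue in the same way, and here most keratins and surface markers were lower in the line. Krt8 fell by 6.14 ± 0.42 on the log2 scale, which is a lower limit as well. Muc16 fell by 3.55 ± 0.69 (adjusted p = 0.0018), a lower limit since replicates 1 and 2 of the line lay below the array medians. Krt7 fell by 2.72 ± 0.45 (6.60-fold, adjusted p = 0.000672). Krt19 (-2.62 ± 0.74, adjusted p = 0.0138) and Msln (-2.0002 ± 0.35, adjusted p = 0.000895) fell as well. Krt18 rose by 1.48 ± 0.49 (2.79-fold, adjusted p = 0.028). These 6 of 10 genes compare with 31.7% of all genes, and the 5 that fell with 18.9%. Lrrn4 (-3.01 ± 1.14, adjusted p = 0.0508), Upk3b (-1.14), Wt1 (1.03) and Upk1b (1.09) were not called. The median change was -2.31 for the 10 genes and -0.00013 for all genes.

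Without tsA58 line replicate 3, 7 of the 10 genes were lower against 18.9% of all genes, as Lrrn4 (-4.75 ± 0.45) and Upk3b (-2.51 ± 0.26) were added. On the probe set used for each gene, all 10 stood higher on that array than the mean of replicates 1 and 2. The other probe sets of Krt8, a gene at the array medians in this line, did not. Leaving that array out thus lowers the line by construction. Krt18 was then at 1.33 (adjusted p = 0.0709), and its call was also lost without tsA58 line replicate 1 (1.05), tsA58 tissue replicate 1 (1.27) or tsA58 tissue replicate 3 (1.41), and when only the 2 groups compared were fitted (1.48, adjusted p = 0.0665). Without tsA58 line replicate 2, Wt1 (1.51) and Upk1b (1.98) were called higher. The Msln call was lost under hybridisation control centring (-1.37, adjusted p = 0.111). Krt7, Krt8, Krt19 and Muc16 were called lower with any 1 array left out and under that centring.

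Set against each other, the lines differed in most of these genes. Among the keratins Krt8 (-4.13 ± 0.42, 17.5-fold), Krt7 (-3.03 ± 0.45, 8.19-fold) and Krt19 (-2.63 ± 0.74, adjusted p = 0.0273) were lower in the tsA58 line. Among the mesothelial markers Lrrn4 (-3.68 ± 1.14, adjusted p = 0.0412), Wt1 (-2.50 ± 0.54, 5.64-fold) and Msln (-1.75 ± 0.35, 3.37-fold) were. These 6 of 10 genes were lower and 0 higher, against 5.77% and 8.38% of all genes. An unadjusted limma p below 0.05 was found for 7, all of them lower, and the share of all genes at that threshold was not computed. Upk3b (-2.57 ± 0.87, adjusted p = 0.0569), Upk1b (-0.66), Muc16 (-0.66) and Krt18 (0.52) were not called. The median was -2.53 for the 10 genes and -0.04 for all genes.

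The 3 arrays of each line did not overlap for Msln, Wt1, Krt7, Krt8 and Krt19, and they overlapped for Lrrn4 through replicate 3. The share of all genes without overlap between the lines was not computed, so this describes the values only. Without tsA58 line replicate 3, 9 of 10 genes were lower against 7.48% of all genes, and Krt18 (0.37) alone was not called. Upk3b was then at -3.94 ± 0.26, Lrrn4 at -5.42 ± 0.45, Upk1b at -1.65 ± 0.37 and Muc16 at -1.64 ± 0.38. Leaving out the array on which these genes stood high lowers the line by construction, so this count is no support. With any other array left out, 4 to 6 of the 10 were lower. The calls of Lrrn4 and Krt19 were lost when any 1 of C57BL/6J line replicates 1 to 3 or tsA58 line replicates 1 and 2 was left out (Lrrn4 at -4.12 to -2.51 and Krt19 at -2.86 to -1.67). For Lrrn4 this also held without either C57BL/6J tissue array or without tsA58 tissue replicates 1 or 3, at -3.68 each time. Centring on the hybridisation controls ended the calls of Msln (-0.17), Wt1 (-0.91) and Krt19 (-1.05) and moved the median of all genes by 1.58, and Krt7, Krt8 and Lrrn4 were still called lower (0.670% of all genes) while Krt18 was called higher (2.10, adjusted p = 0.0047), as were 63.4% of all genes. When only the 2 lines were fitted, the calls of Krt19 (adjusted p = 0.0637) and Lrrn4 (adjusted p = 0.104) were lost at the same fold changes.

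**Figure D2:**
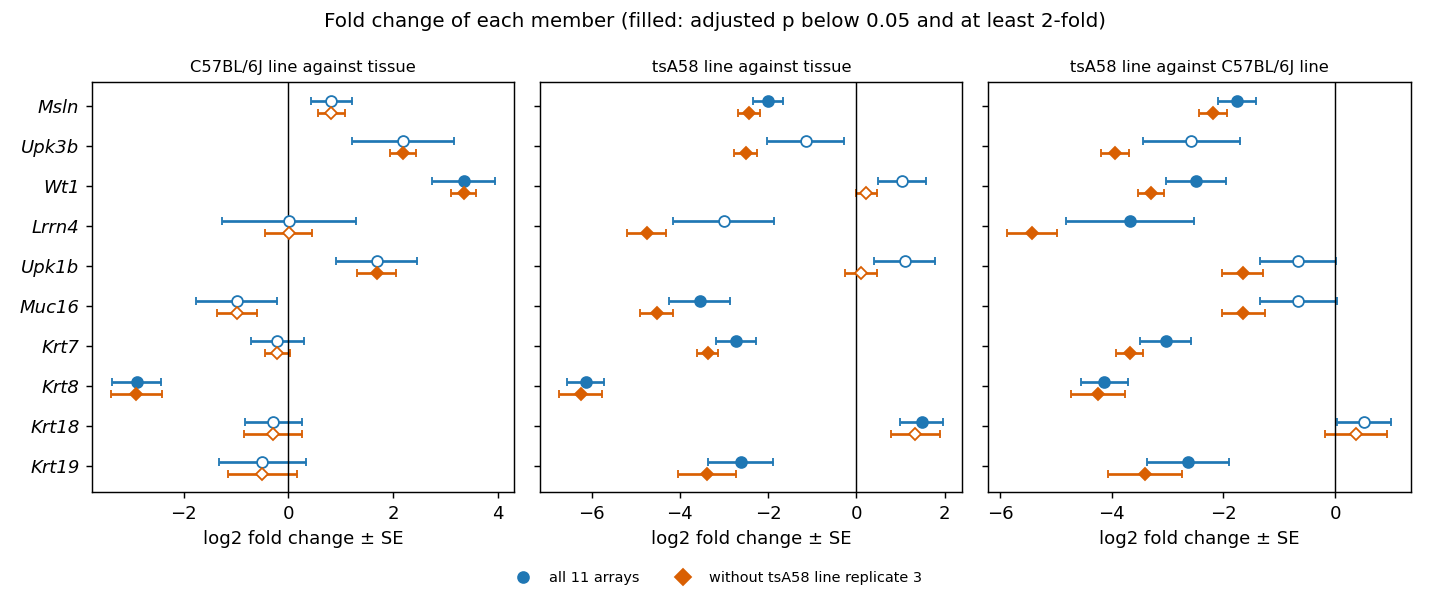
Log2 fold change with its standard error for each of the 10 genes in 3 comparisons, from all 11 arrays (circles) and without tsA58 line replicate 3 (diamonds); filled symbols are called. Krt8 is filled in all 3 panels, at -2.90, -6.14 and -4.13, and Lrrn4 and Upk3b move furthest between the circles and the diamonds where the tsA58 line is compared. The diamonds leave out an array singled out with its values known and test nothing.

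Within the tsA58 line, replicate 3 stood above replicates 1 and 2 for the mesothelial markers far more than for Krt8 and Krt18. The log2 difference from the mean of replicates 1 and 2 was 5.24 for Lrrn4, which put it at rank 3 among 13285 genes, and 4.10 for Upk3b, at rank 16. It was 2.96 for Upk1b, 2.94 for Muc16, 2.40 for Wt1, 2.30 for Krt19, 1.93 for Krt7 and 1.29 for Msln, all within the top 3.5% of genes. For Krt18 (0.45, with 16.0% of genes at or above it) and Krt8 (0.34, with 21.4%) it was small. The genes were chosen with earlier results of these arrays known, so their ranks describe the array and test nothing. Replicate 2 stood apart as well, below the mean of replicates 1 and 3. Its difference was -3.49 for Lrrn4, -2.88 for Krt19, -2.77 for Upk3b, -2.65 for Upk1b and -1.75 for Krt18. For Krt19 and Krt18 this was further from the other arrays than replicate 3 was.

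In the C57BL/6J line the replicate 3 gap was smaller than in the tsA58 line for 8 of the 10 genes and larger for Krt8 and Krt18. Replicate 3 was above the mean of replicates 1 and 2 by 1.45 for Muc16, 1.34 for Krt8, 1.08 for Krt19 and 0.92 for Krt18, and by 0.04 for Upk3b and 0.10 for Upk1b. Lrrn4 on replicate 2 was 1.34 below the mean of the other arrays. The keratins and Muc16 thus spread more in that line than the uroplakins.

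**Figure D3:**
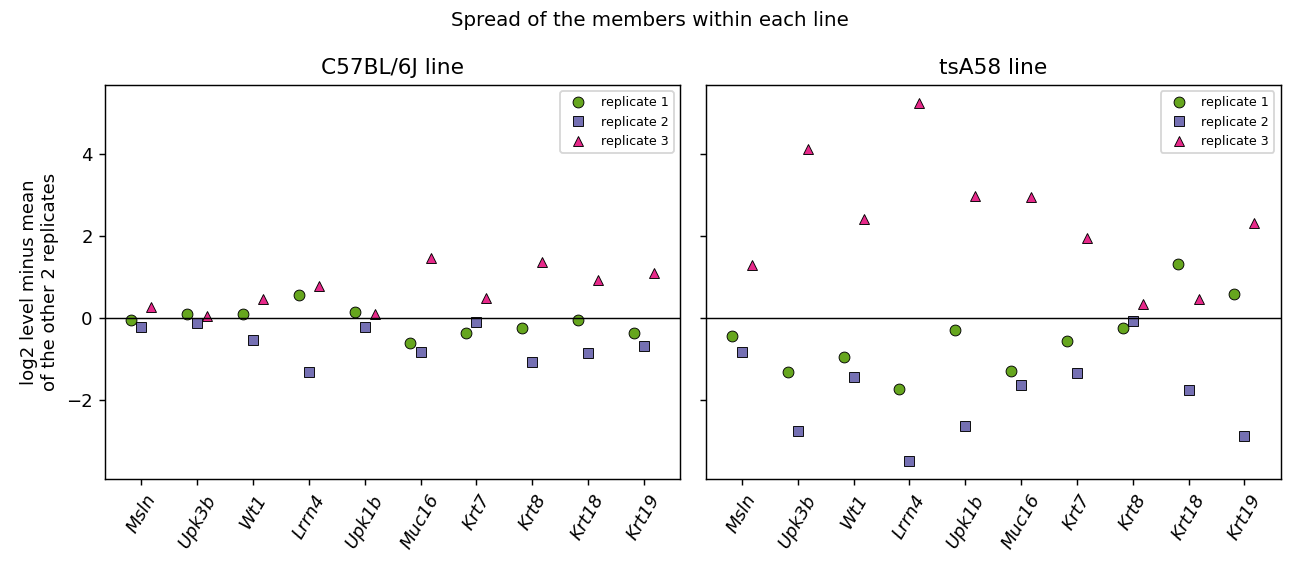
Log2 level of each gene on 1 array minus the mean of the other 2 arrays of the same line, for the C57BL/6J line (left) and the tsA58 line (right). Replicate 3 of the tsA58 line lies at 5.24 for Lrrn4 and 4.10 for Upk3b and near 0 for Krt8 (0.34) and Krt18 (0.45).

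A further list of 15 genes was drawn up for mesothelium, of which 14 were tested. Whether other cells of the muscle wall make them was not tested, so their changes are not those of mesothelium alone. In the C57BL/6J line 2 rose above tissue levels (Podxl, 2.69 ± 0.65, and Bnc1, 1.57 ± 0.56) and 6 fell, against 17.5% and 16.6% of all genes, and the latter included the transcription factor Tcf21 (-6.25 ± 0.20), the retinoic acid enzyme Aldh1a2 (-4.77 ± 0.34) and the Wnt potentiator Rspo1 (-3.35 ± 0.90). In the tsA58 line against tissue 2 rose (Tbx18, 3.13 ± 0.23, and Anxa8, 1.29 ± 0.36) and 7 fell, against 12.8% and 18.9% of all genes, and the latter included Aldh1a2 (-6.63 ± 0.31), Tcf21 (-6.63 ± 0.18) and the membrane glycoprotein Gpm6a (-6.50 ± 0.51). Tcf21 lay below the array medians in both lines, as did Aldh1a2 in the tsA58 line and on 2 C57BL/6J line arrays and Gpm6a on 2 tsA58 line arrays, so these sizes are lower limits with no order among them. Tbx18 lay below the array medians on every tissue array (3.22 to 3.95). It passed the filter only through line arrays (6.41 to 6.70 in the tsA58 line), so its rise is no support and its size is a lower limit. The list's median change was -0.44 and -1.26, against 0.12 and -0.00013 for all genes. The C57BL/6J line thus had Wt1 at levels above its tissue while Tcf21 and Aldh1a2 stood at 2.85 to 5.09, and Gpm6a stayed at 8.73 to 9.66.

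Between the lines, 3 of these 14 genes were lower in the tsA58 line and 2 higher, against 5.77% and 8.38% of all genes. Gpm6a was 5.64 ± 0.51 log2 units lower, and Bnc1 and Dpp4 were lower as well. Anxa8 (3.01 ± 0.36) and Tbx18 (2.15 ± 0.23) were higher. Dpp4 lay near or below the array medians in both lines, as did Tbx18 in the C57BL/6J line. On tsA58 line replicate 3 several listed genes followed the surface markers. Rspo1 read 8.26 there against 4.52 and 4.41, Cldn15 10.21 against 7.86 and 5.73, and Bnc1 8.81 against 7.10 and 6.27. Podxl was 2.42 and Nkain4 2.27 above the mean of replicates 1 and 2. Others of the list did not differ that way, as Aldh1a2 (0.20), Tcf21 (0.11), Tbx18 (-0.14) and Anxa8 (-0.50) show. The keratinocyte genes Krt14 (10.70 against 6.43 and 5.26) and Ivl (7.57 against 4.63 and 4.25) were also high on that array, and Krt15 read 5.36 against 3.85 and 3.45. The other 9 of 12 listed squamous genes differed from the mean of replicates 1 and 2 by less than 1, as Krt10 (6.64 against 6.91 and 6.92), Krt5 (5.64 against 5.46 and 5.35) and Trp63 (3.77 against 3.72 and 3.75) show. Cldn15, Podxl, Bnc1, Nkain4, Krt14, Krt15, Krt5 and Trp63 were chosen for mention after their values were seen. The part of RNA quality or cell content in these readings was not tested.

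**Figure D4:**
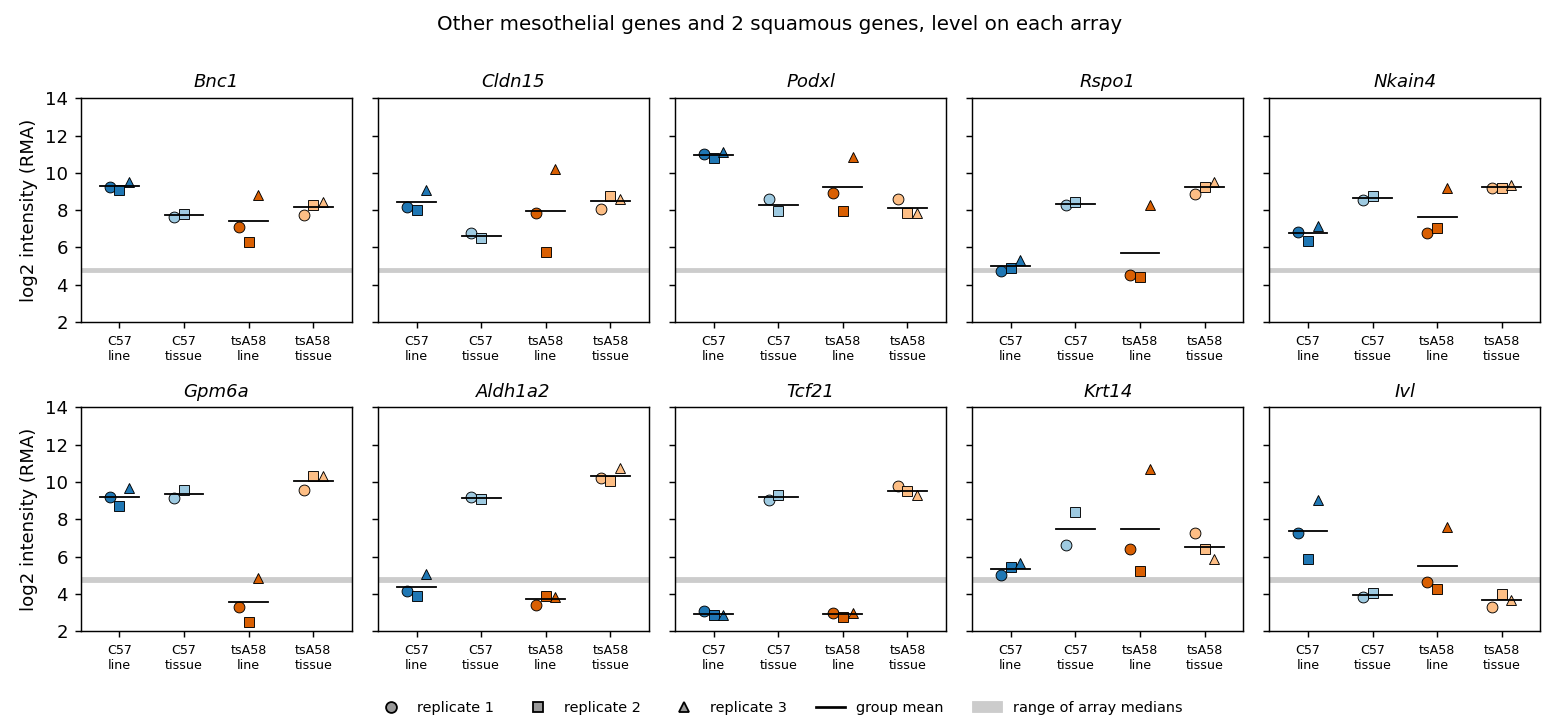
Log2 intensity on the 11 arrays for 8 genes of the further list drawn up for mesothelium and the squamous genes Krt14 and Ivl. Point shape gives the replicate, bars are group means and the grey band spans the array medians. Rspo1 reads 8.26 on tsA58 line replicate 3 and 4.52 and 4.41 on the other arrays of that line, whereas Tcf21 lies between 2.77 and 3.08 in both lines.

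Krt8 and Krt18 are neighbouring genes on opposite strands, with 0 protein-coding genes between them in RefSeq (GRCm38.p6). Their 250 bases before the start, Krt8 at chr15:102004343-102004592 (minus strand) and Krt18 at chr15:102027966-102028215 (plus strand), are shown because these partners differed in opposite directions between the tsA58 line and its tissue. Capitals mark the E-box CACCTG, at 111 to 106 bases before the start of Krt8 and 214 to 209 before that of Krt18.
Krt8: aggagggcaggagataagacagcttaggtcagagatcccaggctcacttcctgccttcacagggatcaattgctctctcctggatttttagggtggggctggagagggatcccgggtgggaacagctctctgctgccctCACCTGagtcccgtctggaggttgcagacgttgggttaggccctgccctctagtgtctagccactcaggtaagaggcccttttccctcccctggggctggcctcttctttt
Krt18: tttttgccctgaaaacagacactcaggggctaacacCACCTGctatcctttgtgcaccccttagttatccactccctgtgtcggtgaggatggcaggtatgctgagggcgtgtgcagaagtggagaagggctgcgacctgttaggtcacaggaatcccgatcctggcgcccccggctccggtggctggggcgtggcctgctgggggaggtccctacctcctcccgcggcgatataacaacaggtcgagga
On either strand, CACCTG occurred in 17.2% of the 32851 promoters and in Krt7, Krt8 and Krt18 of the 6 available here. The GC box GGGCGG occurred in 32.7% of promoters and in 1 of these 6, that of Krt7.

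The difference of Krt8 minus Krt18 within an array was used to follow the pair, with its size read between groups only, since the probe sets of different genes have different responses. It was -1.25 ± 0.25 (SD, n = 3) in the C57BL/6J line and 1.36 ± 0.25 (n = 2) in C57BL/6J tissue. It was -5.91 ± 1.08 (n = 3) in the tsA58 line and 1.71 ± 0.47 (n = 3) in tsA58 tissue. Every tsA58 line array lay below every C57BL/6J line array, and those below every tissue array; the pair was chosen with its levels known, so no test is given. The means differed by -2.61, -7.62 and -4.66 in the C57BL/6J line against tissue, the tsA58 line against tissue and the tsA58 line against the C57BL/6J line. Krt8 lay at the array medians in the tsA58 line, so the sizes of the last 2 are lower limits. The spread in that line is mostly that of Krt18 (SD 1.05, against 0.20 for Krt8). Across all 11 arrays Krt8 and Krt18 had a Pearson correlation of -0.38, whereas Krt7 and Krt19 had 0.94, as a description of arrays that share their groups.

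**Figure D5:**
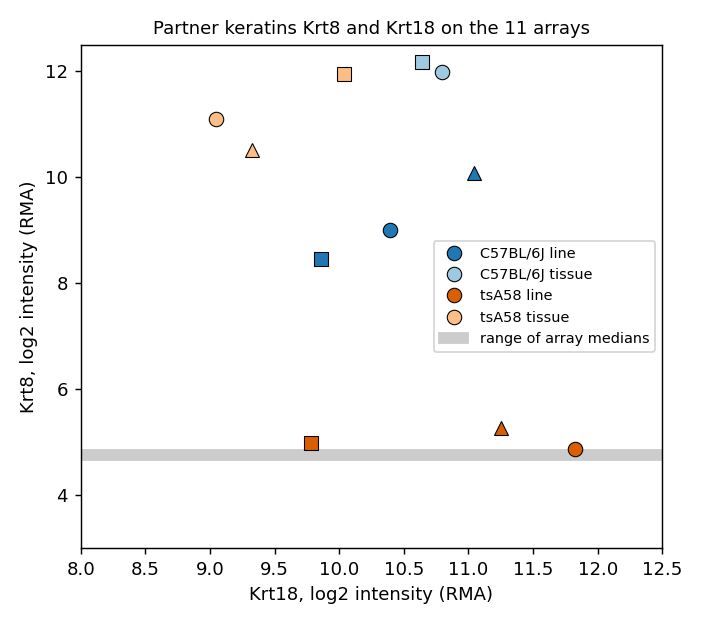
Log2 intensity of Krt8 against Krt18 on the 11 arrays; colour gives the group, shape the replicate (circle 1, square 2, triangle 3), and the grey band spans the array medians. The tsA58 line arrays lie along the bottom, with Krt8 at 4.88 to 5.27 and Krt18 at 9.78 to 11.82.

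Between the source tissues 0 of the 10 genes were called, against 12.8% of all genes with limma (9.56% higher and 3.21% lower), and 3 had an unadjusted p below 0.05. These were Muc16 (1.90 ± 0.77), Msln (1.07 ± 0.39) and Krt18 (-1.25 ± 0.54), and the share of all genes at that threshold was not computed. Muc16, Msln and Upk3b were higher on every tsA58 tissue array than on both C57BL/6J tissue arrays, and Lrrn4, Krt7, Krt8 and Krt18 were lower. The share of all genes without overlap between the tissues was not computed. Muc16 and Msln were called higher in tsA58 tissue without tsA58 line replicate 3 (adjusted p = 0.00710 and 0.0135), as were 10.4% of all genes. Muc16 was also called with array weights (1.89) and in a fit of the tissues alone (1.90, adjusted p = 0.0152). Without tsA58 line replicate 2, Krt18 was called lower (-1.25, adjusted p = 0.0455). Under hybridisation control centring 8 of the 10 genes were called higher, against 92.2% of all genes, with a shift of 2.22 in the median of all genes. With the actin ratio as a covariate 6 were called lower, against 3.04% of all genes: Lrrn4 (-4.10), Krt19 (-2.48), Upk1b (-2.26), Upk3b (-1.98), Krt7 (-1.85) and Wt1 (-1.65). The ratio itself separated the tissues (1.02 and 0.844 against 0.472, 0.428 and 0.415). Within groups it spread most in the tsA58 line, where replicate 3 had the lowest ratio and high levels of these genes. Replicate 2 of that line had its highest ratio and its lowest levels of them. How far the slope rests on single arrays was not tested. Since the ratio separated the tissues, these 6 values are no measure of a tissue difference.

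Tissue keratins came from arrays with uneven amounts of epithelial RNA. The mean of 12 gastric gland genes was 10.05 and 9.87 in C57BL/6J tissue and 8.91, 11.40 and 9.33 in tsA58 tissue, and 4.76 to 5.37 in the lines. tsA58 tissue replicate 2, with the highest gastric and pancreatic means of its group, also had its group's highest Krt8 (11.94), Krt18 (10.04) and Krt19 (11.49), but Krt7 was highest on replicate 1 (8.68). In C57BL/6J tissue, replicate 1 had the higher gastric and pancreatic means and the higher Krt18 (10.79), and Krt8 (12.18), Krt19 (11.39) and Krt7 (9.25) were higher on replicate 2. The forestomach keratins Krt13 and Krt4 read 11.81 and 11.69 on C57BL/6J tissue replicate 2, 8.26 and 8.20 on tsA58 tissue replicate 2 and 3.38 to 4.10 on the other 3 tissue arrays. They were picked after their values were seen. Among the tsA58 tissue arrays Msln, Wt1 and Muc16 were highest on replicate 1 and Lrrn4 on replicate 2, and the probe sets of Upk3b and of Upk1b differed in which array was highest. How much of the tissue keratin signal comes from glands, ducts or mesothelium was not tested.

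The change from tissue to line differed between the strains for Krt8 (-3.23 ± 0.63), Msln (-2.82 ± 0.52) and Krt7 (-2.51 ± 0.67), each lower in the tsA58 line relative to its tissue. These 3 of 10 genes compare with 20.3% of all genes (7.30% higher and 13.0% lower). An unadjusted limma p below 0.05 was found for 7 of the 10, and the share of all genes at that threshold was not computed. Krt18 (1.77 ± 0.73) was the only 1 of the 10 with a positive value and was not called. Without tsA58 line replicate 3, 9 of 10 were called lower against 16.0% of all genes, all but Krt18. That count leaves out the array on which these genes stood high and tests nothing. With any other array left out, 2 or 3 were called lower. The Krt7 call was lost without C57BL/6J line replicate 3, either C57BL/6J tissue array or tsA58 line replicate 1 (-2.71 to -2.32), and Krt8 and Msln kept theirs without any 1 array.

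Several genes that epithelia express beside keratins were lower in both lines. Of 11 epithelial adhesion genes tested, 7 fell in each line against its tissue, where 16.6% (C57BL/6J) and 18.9% (tsA58) of all genes fell, among them the cadherin Cdh1 (-5.91 ± 0.53 and -5.10 ± 0.47), which stood at 2.62 to 4.24 in the lines. Of 11 genes that anchor keratin at junctions, 5 fell in the C57BL/6J line and 4 in the tsA58 line, with the desmosome linker Dsp (-7.78 ± 0.44 and -5.18 ± 0.39) and the desmosomal cadherin Dsg2 (-5.97 ± 0.44 and -3.72 ± 0.39) among them. Plec, which links filaments to junctions, was 1.08 ± 0.30 higher in the tsA58 line than in the C57BL/6J line, where 8.38% of all genes were. The gastric gland list had 10 and 11 of 12 genes lower in the lines. Median changes were -2.25 and -1.54 for adhesion, -1.12 and -0.65 for anchoring and -5.36 and -5.02 for gastric genes, in the same order of lines, against 0.12 and -0.00013 for all genes. Cdh1, Dsp and Dsg2 lay below the array medians on all line arrays, so their changes are lower limits.

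Few other keratins were called, against the same 16.6% and 18.9% of all genes that fell. Of 3 other simple keratins, Krt20 fell in both lines (-6.04 ± 0.30 and -4.15 ± 0.27), and Krt23 was 3.46 ± 0.60 lower in the tsA58 line than in the C57BL/6J line, both of them limits since lower ends lay near or below the array medians. Of 9 genes of stratified epithelium tested, the cornified envelope gene Ivl rose in the C57BL/6J line (3.43 ± 0.98), and Krt10 fell in both (-2.31 ± 0.34 and -1.01 ± 0.30). Of 8 other intermediate filament genes, 4 fell in each line, among them the muscle filament desmin (Des, -6.80 ± 0.18 in the tsA58 line), and vimentin (Vim) was not called in either (0.59 and 0.73). Of 7 other uroplakins and membrane mucins tested, 3 fell in the C57BL/6J line and 2 in the tsA58 line, the latter close to the share of all genes. Median changes were 0.12 and -1.55 for the simple keratins, -0.78 and -0.37 for the stratified list, -1.19 and -2.08 for the filaments and -0.59 and 0.04 for the uroplakins and mucins.

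The probe sets of Krt8 read alike, while those of Upk1b and Upk3b differed in part. The 3 Krt8 probe sets lay at -2.59 to -2.98 in the C57BL/6J line and at -5.95 to -6.46 in the tsA58 line against tissue. All were called lower, as were 16.3% and 15.9% of the 26903 probe sets tested. The second Upk3b probe set read 11.84, 11.66 and 11.65 in the C57BL/6J line, 9.25 and 9.55 in C57BL/6J tissue, 8.08, 6.95 and 11.95 in the tsA58 line and 9.74, 9.94 and 9.94 in tsA58 tissue, with the same outlying array in the tsA58 line. In tsA58 tissue this probe set was lowest on replicate 1, where the first was highest. All 4 Upk1b probe sets were highest on tsA58 line replicate 3, and 1 of them was called in the C57BL/6J line against tissue (2.28 ± 0.84, adjusted p = 0.0455), where 17.8% of probe sets were called higher. The weakest Upk1b probe set lay at 0.75 ± 0.48 there and was not called, its difference of differences was 0.11 against -0.60 for the one used, and its tissues did not overlap (7.30 and 7.45 against 6.36, 6.75 and 6.82). Some Krt8, Upk1b, Upk3b and Wt1 probe sets are of the design classes that can match related transcripts.

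Across the 11 arrays the genes with the most similar pattern differed from member to member. They were Fgfr1 for Msln (Pearson r = 0.98), Prss12 and Bnc1 for Upk3b (0.97 and 0.96), Olr1 for Wt1 (0.99), Nes for Lrrn4 (0.98), Sim2 for Upk1b (0.97) and Cacnb2 for Muc16 (0.99). For the keratins they were Dock10 for Krt7 (0.98), Fuca1 for Krt8 (0.99), Lima1 for Krt18 (0.90) and Ahr for Krt19 (0.95). Krt7 was itself among the 3 genes most like Krt19. These correlations describe arrays that share their groups and are not tests.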

How the data were processed

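About 50 ng of total RNA per sample was amplified through oligo(dT) and then random priming, per the labels' protocols, so signals lean to the 3' end. The authors deposited log2 values per probe set made with RMA, per the submitters' processing notes. The RMA version: not given in the sources used here. RMA equalises probe intensity distributions, so changes are relative to the bulk of transcripts. The number of arrays, 2 or 3 per group, limits the precision.

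Of 45101 probe sets, 64 are controls, and 34945 carry 1 gene symbol, 932 several and 9160 none in the platform annotation. Entrez identifiers of the members were matched to RefSeq (GRCm38.p6). For each gene the probe set with the highest mean over all arrays was used, and the gene was tested when above the array median on at least 2 arrays. Groups were taken from titles. Comparisons used lmFit and eBayes of limma 3.58.1 (R 4.3.3; 4 group means, 7 residual and 3.49 prior degrees of freedom), with Benjamini-Hochberg adjustment over the 13285 genes. ± is the SE for a fold change. The fit was tested on simulated data. Plots used Python 3.11.15 and matplotlib 3.10.9.

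The members and the other gene lists were chosen with earlier results of these data known. All members are named, with up to 3 called genes of each other list per comparison by size of change and, for likeness, genes of highest correlation. Alternatives were other filters, scalings, probe set rules, samples in the fit, array weights, an RNA quality covariate, a replicate block and each array left out. Promoters were the 250 bases before each RefSeq start.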

Additional observations from a re-analysis of the deposited data

Results flagged for a closer look

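The change from tissue to line differed between the strains by the test of the difference itself for 3 of the 10 genes. All 3 were lower, where 20.3% of all genes were called and 13.0% were lower. For Krt8 the tsA58 minus C57BL/6J difference was -3.23, and the fold changes behind it were -6.14 and -2.90. For Msln it was -2.82, from -2.0002 and 0.82. For Krt7 it was -2.51, from -2.72 and -0.21. Krt8 and Msln were called with any 1 array left out, and Krt7 was not called in 4 of those fits.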

How the results depend on the processing

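Across the settings other than leaving out arrays, the results of single genes kept direction and side of the threshold in 362 cases, gained a call in 51, lost it in 9 and changed sign in 18. With 1 array left out the counts were 500, 21, 22 and 7. Array weights gave tsA58 line replicate 3 a weight of 0.181, against 0.587 and 4.15 for replicates 2 and 1. The estimation of these weights stopped before its tolerance was reached.

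In the C57BL/6J line against tissue, 4530 of 13285 genes and 2 members became 5663 and 4 with hybridisation control centring. They became 4779 and 4 when only the groups compared were fitted. Array weights gave 4838 and 5, and the actin 3' to 5' ratio as covariate gave 4671 and 4. Between the lines, 1880 genes and 6 members became 8509 genes and 4 members (3 lower, 1 higher) with hybridisation control centring. Array weights gave 2845 and 10 there, and the actin covariate gave 3245 and 9, with all 9 members lower. Between the tissues, 1696 genes and 0 members became 12270 and 8 with hybridisation control centring and 1387 and 1 when only these groups were fitted. Array weights gave 2136 and 1 there, and the actin covariate gave 2061 and 6, with all 6 members lower. For the difference of differences, 2702 genes and 3 members became 483 and 6 with hybridisation control centring. Array weights gave 4365 and 8 there, and the actin covariate gave 3286 and 8. The cause was not tested. The share of calls that were higher went from 51.3% to 88.0%, 40.3% to 61.9%, 59.2% to 99.0%, 74.9% to 99.9% and 35.9% to 22.8% with hybridisation control centring, in the order C57BL/6J line against tissue, tsA58 line against tissue, lines, tissues and difference, and from 74.9% to 60.1% between tissues with quantile normalization.

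With 1 array left out, genes called ranged from 3856 to 4650, 3921 to 4553, 1351 to 2675, 775 to 1904 and 1458 to 3703 in that order, and members called from 2 to 4, 5 to 8, 4 to 9, 0 to 2 and 2 to 9. The tissue comparison had 775 genes without C57BL/6J tissue replicate 1, and 658 higher and 137 lower without replicate 2, and the difference of differences had 1458 genes without replicate 1, and 430 higher and 1052 lower without replicate 2.

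Of the 18 sign changes outside the fits with 1 array left out, 6 were called in the turned direction, all between the tissues: Wt1, Lrrn4, Upk1b, Krt7 and Krt19 higher with hybridisation control centring and Upk3b lower with the actin covariate. In the C57BL/6J line against tissue, hybridisation control centring turned Muc16 to 0.28, Krt7 to 1.06, Krt18 to 0.98 and Krt19 to 0.77, the actin covariate turned Krt7 to 0.031, quantile normalization turned Lrrn4 to -0.10, and Lrrn4 ranged from -0.25 to 0.45 with 1 array left out. Between the lines, that centring turned Upk1b to 0.92 and Muc16 to 0.92, the actin covariate turned Krt18 to -0.31, and Upk1b ranged from -1.65 to 0.22 with 1 array left out. Between the tissues, that centring turned Wt1 to 2.05, Lrrn4 to 1.55, Upk1b to 2.15, Krt7 to 1.70, Krt8 to 1.32, Krt18 to 0.97 and Krt19 to 1.71, the actin covariate turned Upk3b to -1.98, and Upk1b ranged from -0.19 to 0.054 with 1 array left out. In the difference of differences Upk1b ranged from -1.58 to 0.29 with 1 array left out.

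Deviations of same-numbered arrays from their group means correlated at -0.156 to 0.25, the highest between replicates 2 of the lines. With 2 or 3 arrays per group this cannot show whether the replicate numbers pair the arrays. With the replicate number as a block, 2, 7, 6, 0 and 3 members and 4476, 4202, 1844, 1481 and 2267 genes were called, Lrrn4 was called in the tsA58 line against tissue (-3.01, adjusted p = 0.0351) and turned to -0.64 in the C57BL/6J line against tissue.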
